A study of Zea mays with 6 samples.

Results

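The cellulose synthase (cesa) genes of maize were followed in shoot tips of seedlings that carry a segmental aneuploidy and in their wild-type siblings. A probe set was taken as a member where its single gene symbol, or a synonym of that gene, read cesa followed by a number. Spellings with a hyphen or capitals, such as CesA-4, were counted, which brought in 4 genes beside the 8 that are also listed as plain cesa and a number. The rule found 13 probe sets of 12 genes, cesa1 to cesa12, among 17621 probe sets on the array, of which 1452 carry a single gene symbol. A further gene of this name in RefSeq, CesA13, was not analysed here.

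Cellulose synthases are membrane proteins that use UDP-glucose to build the glucan chains of cellulose. Several of them, of different kinds, assemble into a complex in the plasma membrane, and cortical microtubules guide its path. In maize, cesa10, cesa11 and cesa12 are known for the thick secondary walls of xylem and fibres, and cesa1 to cesa9 mostly for the thin primary walls of growing cells.

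DpDf (duplicate-deficient) plants descend from the translocation T5-6b in the B73 inbred background. They carry 3 copies of the greater part of chromosome 5's short arm, and 1 copy of a small terminal part of chromosome 6. Wild-type siblings came from the same selfed DpDf families and lack this imbalance. There were 3 pools of DpDf plants and 3 of wild type, each of 8 greenhouse seedlings aged 14 days whose genotype was told by a marker near the chromosome 5 breakpoint, and each pool went on 1 array. About a centimetre of shoot tip was taken, meristem together with leaf primordia. All plants descend from 1 translocation, and a pool gives no spread between its plants.

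None of the 12 genes lies on chromosome 5 (0 of 12) by the RefSeq annotation of Zm-B73-REFERENCE-NAM-5.0. The genes cesa5, cesa6 and cesa10 lie on chromosome 1, cesa9 on chromosome 2, cesa3 and cesa11 on chromosome 3, cesa1 on chromosome 8, and cesa4, cesa7, cesa8 and cesa12 on chromosome 7. On chromosome 6 lies cesa2, with 66.4% of that chromosome's genes before it.

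On 5 arrays the median intensity was 490.9 to 506.1, and on that of wild type replicate 3 it was 415.9. That array had a narrower range of signal, as its 10th percentile of intensity, 104.2, was above the 69.6 to 73.7 of the others. The highest Spearman correlation of that array with another was 0.932, against 0.994 or more for each of the others, so results are also given without it. The log2 signal of 3' over 5' probe sets of 5 control transcripts, a sign of RNA quality, was 1.96, 0.99 and 0.95 for the DpDf arrays, against 0.64, 0.71 and 0.71 for wild type, in order of replicate. Every DpDf value was higher than every wild-type value (exact permutation test, two-sided, p = 0.1, which is the lowest p this number of arrays can give). Its part in the differences given here was not tested. The meristem regulator kn1, a marker of shoot tips, read 9.77 to 10.42 in DpDf and 9.96 to 10.24 in wild type on the log2(intensity + 1) scale, which is used for every level and difference here.

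The cesa probe sets were bright in every pool. All 13 passed the filter on low values, which asked for 3 or more arrays at or above their own 40th percentile. On any array they lay between percentiles 78.3 and 98.2 of all probe sets. The percentiles of cesa7 were 97.9 to 98.2 in DpDf and 96.9 to 98.0 in wild type, and those of cesa9 were 96.7 to 97.0 in DpDf and 95.7 to 97.0 in wild type. At the other end, cesa12 lay at 80.6 to 84.9 in DpDf and 78.3 to 80.3 in wild type, and cesa3 at 79.8 to 80.8 in DpDf and 79.8 to 82.5 in wild type. The secondary-wall genes thus gave signal well above the middle of the array in these young tissues. Probe sets differ in how strongly they bind, so a place in this order does not give the number of transcripts of one gene relative to another.

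Most cesa probe sets read slightly higher in DpDf than in wild type. Over the 13, the log2 difference (DpDf minus wild type) had a median of 0.28, or 1.22-fold, with all 6 arrays. The differences ran from 0.15 for cesa3 to 0.48 for cesa12, all above 0 (cesa3 was at -0.048 after quantile normalization), as were 79.6% over all probe sets tested. Without wild type replicate 3 the median was 0.29 and the range 0.038 for cesa5 to 0.49 for cesa4, again all above 0, against 55% of all probe sets.

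No cesa probe set passed the limma test over all probe sets. With all 6 arrays 0 of 13 passed (limma adjusted p = 0.408 to 0.627), where 0.0281% of all probe sets did. Without wild type replicate 3 it was 0 of 13 (limma adjusted p = 0.088 to 0.848), where 3.33% passed and 3.09% passed as higher in DpDf. At an unadjusted limma p under 0.05 there were 8 of 13 with all 6 arrays, each higher in DpDf. Over all probe sets that share was 8.8% higher in DpDf and 9.76% in either direction, and among the 3000 whose mean level lay in the cesa range it was 9.43% higher in DpDf. Without wild type replicate 3 there were 11 of 13, against 13.6% higher and 20.3% in either direction over all probe sets, and 13.9% higher in the cesa range of levels. Where limma weighted the arrays by their quality in place of equally, 9 of 13 passed, but so did 22.9% of all probe sets, and that estimate stopped before it converged.

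**Figure D1:**
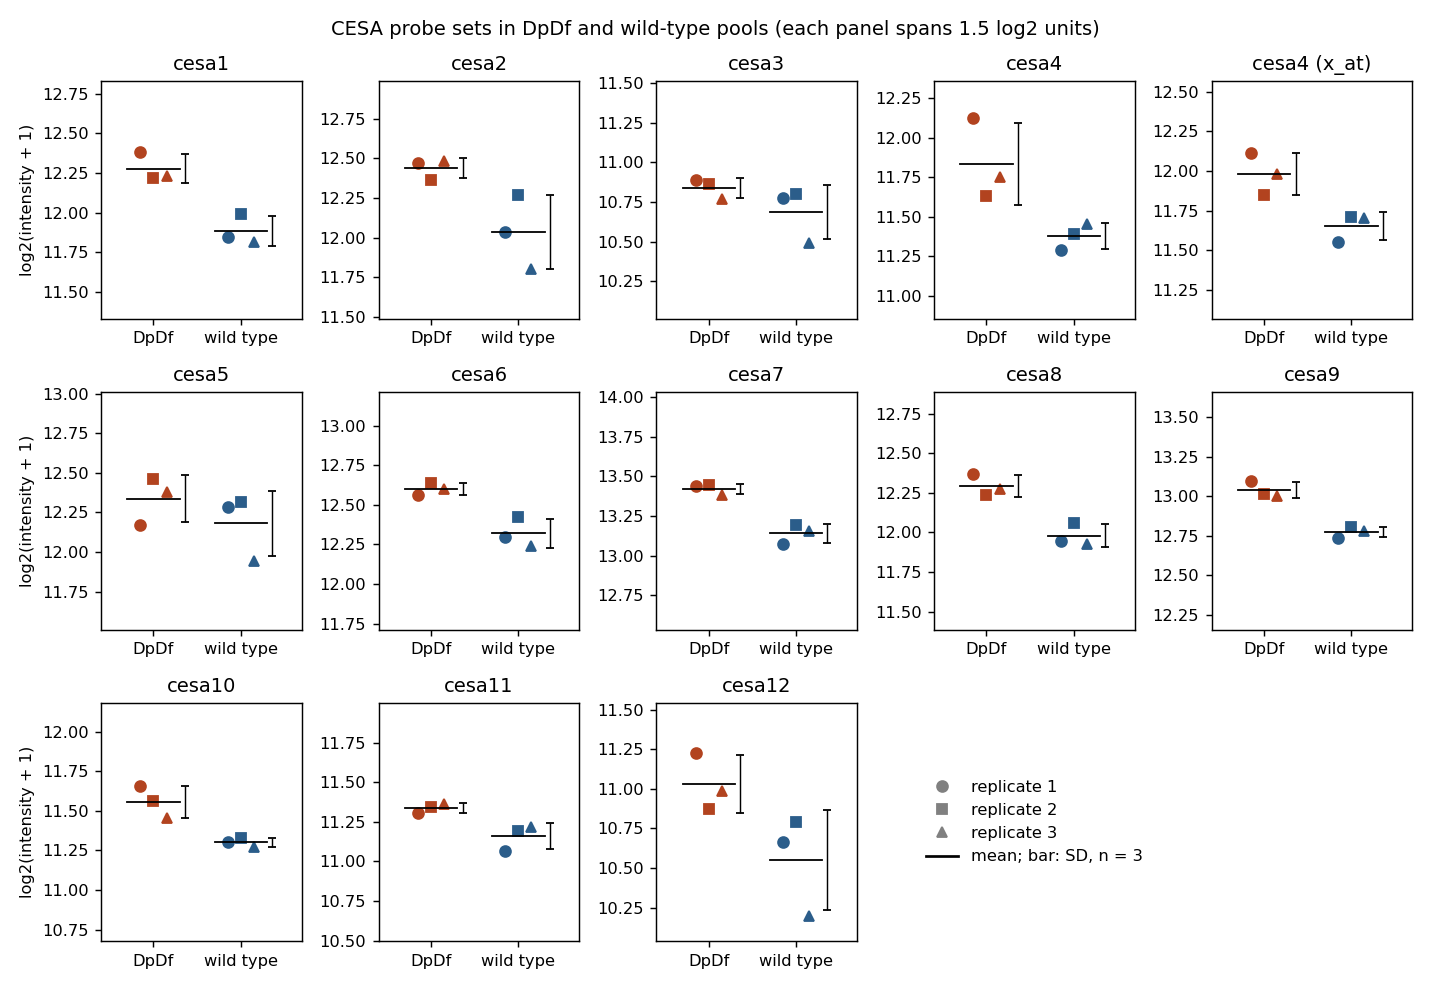
Level of each cesa probe set on each array as log2(intensity + 1), DpDf pools left and wild-type pools right, with a line at the mean and a bar for the SD of 3 pools. In 11 of the 13 panels the DpDf pools all lie above the wild-type pools, the exceptions being cesa3 and cesa5.

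For 11 of the 13 probe sets, from 10 of the 12 genes, the lowest DpDf pool was above the highest wild-type pool. The same held for 23.2% of all probe sets tested, and for 25.4% of the 3000 in the cesa range of levels. The reverse order, every DpDf pool below wild type, held for 0 of 13, against 3.61% of all probe sets. When wild type replicate 3 was left out the count was again 11 of 13, against 25.4%. With DpDf replicate 1, whose control transcripts had the largest 3' excess, left out as well, it was 12 of 13, against 29.8%.

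Among the primary-wall genes, cesa7 read 13.44, 13.44 and 13.38 in the DpDf pools, against 13.08, 13.19 and 13.15 in the wild-type pools, in order of replicate as for every gene here. The groups were apart by 0.19, with means of 13.42 ± 0.032 in DpDf pools and 13.14 ± 0.059 in wild-type pools (SD, 3 pools each). Its difference was 0.28 ± 0.11 (SE, limma adjusted p = 0.499) on all 6 arrays, and 0.29 ± 0.074 (limma adjusted p = 0.0999) without wild type replicate 3. The values of cesa8 were 12.37, 12.23 and 12.27 in DpDf pools, against 11.95, 12.06 and 11.93 in wild-type pools, again without overlap. It gave a difference of 0.31 ± 0.12 (SE, limma adjusted p = 0.473), or of 0.29 ± 0.080 (limma adjusted p = 0.119) without wild type replicate 3. On chromosome 1, cesa6 read 12.56, 12.64 and 12.60 in DpDf pools and 12.30, 12.42 and 12.24 in wild-type pools. The gap was 0.14, and the difference 0.28 ± 0.12 (SE, limma adjusted p = 0.511), or 0.24 ± 0.076 (limma adjusted p = 0.151) without wild type replicate 3.

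The values of cesa9 were 13.10, 13.02 and 13.003 in DpDf pools and 12.74, 12.81 and 12.78 in wild-type pools. Here the gap between the groups, 0.20, was wider than the range within either, as it also was for cesa1, cesa7 and cesa8. The difference was 0.26 ± 0.11 (SE, limma adjusted p = 0.517) on all 6 arrays, and 0.27 ± 0.073 (limma adjusted p = 0.117) without wild type replicate 3. For cesa1 the DpDf pools read 12.38, 12.22 and 12.23 and the wild-type pools 11.85, 11.99 and 11.81. Of the 13 probe sets it had the widest gap, 0.22, and the lowest adjusted p in both settings. The difference was 0.39 ± 0.12 (SE, limma adjusted p = 0.408), with a 95% interval of 0.099 to 0.69. Without wild type replicate 3 it was 0.36 ± 0.088 (limma adjusted p = 0.088), with an interval of 0.15 to 0.57.

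On chromosome 6, cesa2 read 12.47, 12.37 and 12.48 in DpDf pools and 12.04, 12.27 and 11.80 in wild-type pools. The wild-type pools were spread more widely than the DpDf pools but did not reach them. Its difference was 0.40 ± 0.15 (SE, limma adjusted p = 0.476) on all 6 arrays, and 0.29 ± 0.094 (limma adjusted p = 0.165) without wild type replicate 3. For cesa4 there were 2 probe sets, the suffix x_at of one marking probes that may also bind similar sequences. The first read 12.12, 11.63 and 11.75 in DpDf pools and 11.29, 11.39 and 11.45 in wild-type pools, and the x_at probe set 12.11, 11.85 and 11.98 in DpDf pools and 11.55, 11.71 and 11.71 in wild-type pools. Both were highest in DpDf replicate 1, and in both the groups did not overlap. The difference of the first was 0.46 ± 0.16 (SE, limma adjusted p = 0.442), or 0.49 ± 0.15 (limma adjusted p = 0.132) without wild type replicate 3, and that of the x_at probe set was 0.33 ± 0.13 (SE, limma adjusted p = 0.499), or 0.35 ± 0.10 (limma adjusted p = 0.127). With DpDf replicate 1 left out as well, a setting chosen after the data were seen, the first was at 0.35 ± 0.077 and just under the threshold (limma adjusted p = 0.0499), and the x_at probe set was at 0.28 (limma adjusted p = 0.112). In that setting 1 of 13 cesa probe sets and 6.39% of all probe sets passed.

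The DpDf and wild-type pools overlapped for the other members of the primary-wall set. In DpDf pools cesa3 read 10.89, 10.86 and 10.77, and in wild-type pools 10.77, 10.80 and 10.49. The lowest value was that of wild type replicate 3. Its difference was 0.15 ± 0.14 (SE, limma adjusted p = 0.60) on all 6 arrays, and 0.053 ± 0.074 (limma adjusted p = 0.708) without wild type replicate 3, where the 95% interval ran from -0.12 to 0.23. For cesa5 the DpDf pools read 12.17, 12.46 and 12.38 and the wild-type pools 12.28, 12.31 and 11.95. Its lowest DpDf pool was replicate 1, which was the highest DpDf pool for 8 of the 13 cesa probe sets, against 46.3% of all probe sets. The difference was 0.16 ± 0.16 (SE, limma adjusted p = 0.627), or 0.038 ± 0.099 (limma adjusted p = 0.848) without wild type replicate 3, with a 95% interval of -0.20 to 0.27. Whether cesa3 and cesa5 differ from the other members in this was not tested.

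Among the secondary-wall genes, cesa12 had the highest difference of the family with all 6 arrays, and cesa11 one of the lower ones. For cesa10 the DpDf pools read 11.66, 11.56 and 11.45 and the wild-type pools 11.30, 11.33 and 11.27. All DpDf pools were above wild type, and the difference was 0.26 ± 0.12 (SE, limma adjusted p = 0.545), or 0.24 ± 0.084 (limma adjusted p = 0.183) without wild type replicate 3. The probe set of cesa11, whose suffix s_at marks probes shared by several transcripts, read 11.30, 11.35 and 11.36 in DpDf pools and 11.07, 11.19 and 11.22 in wild-type pools. The gap was narrow, 0.086, and the difference was 0.18 ± 0.12 (SE, limma adjusted p = 0.564), or 0.21 ± 0.075 (limma adjusted p = 0.196) without wild type replicate 3. After quantile normalization, which takes out array-wide shifts, it was 0.0041 ± 0.16 (limma adjusted p = 0.993), and that of cesa10 was 0.093 ± 0.14 (limma adjusted p = 0.762). That of cesa12 was 0.29 ± 0.12 (limma adjusted p = 0.477) after the same normalization. In DpDf pools cesa12 read 11.23, 10.87 and 10.99, and in wild-type pools 10.66, 10.79 and 10.20. Of the 13 probe sets it had the widest spread among wild-type pools, where replicate 3 was lowest. Its difference was 0.48 ± 0.19 (SE, limma adjusted p = 0.499), and 0.30 ± 0.12 (limma adjusted p = 0.211) without that pool.

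**Figure D2:**
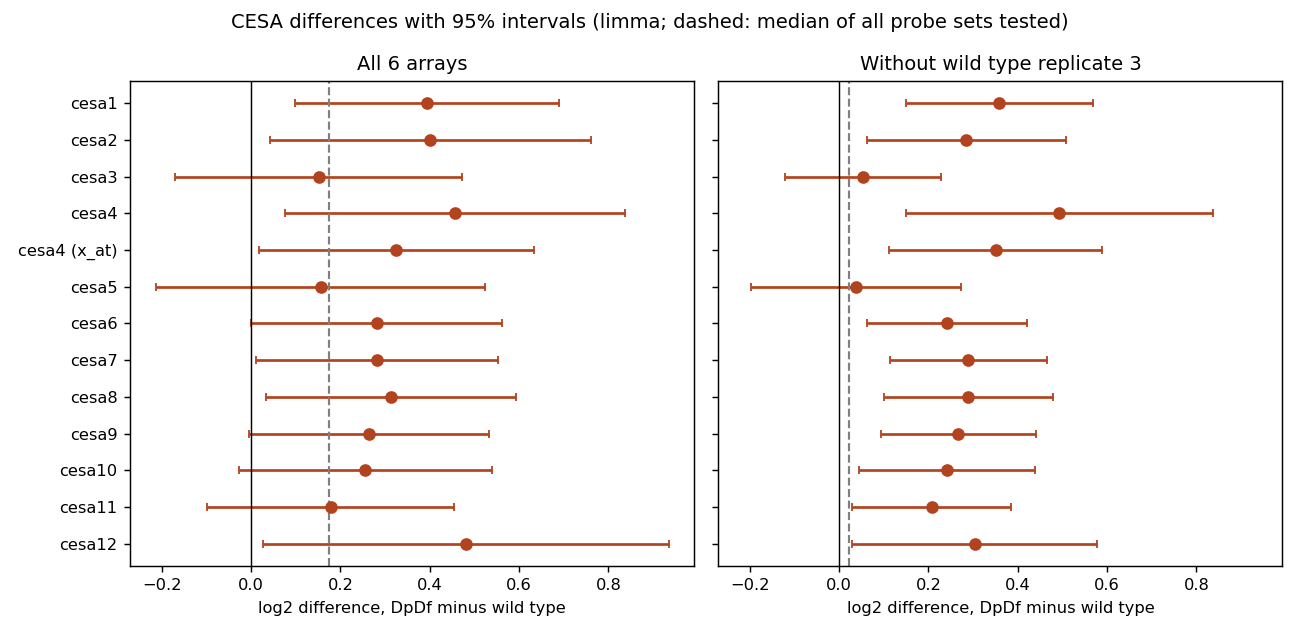
Log2 difference (DpDf minus wild type) of each cesa probe set with its 95% interval from limma, with all 6 arrays at left and without wild type replicate 3 at right. The dashed line is the median of all probe sets tested, 0.18 at left and 0.021 at right. Of the 13 intervals, 0 at left lie wholly above it, against 11 at right, a share not counted over all probe sets.

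Among the probe sets that passed the filter, most values were lower in wild type replicate 3, so the cesa differences were set against those of all probe sets tested. The median difference over all probe sets tested was 0.18 on all 6 arrays, and 0.021 without that pool. With all 6 arrays 11 of the 13 cesa differences lay above this median, but 0 of their 95% intervals did so wholly. Without wild type replicate 3 all 13 differences lay above it, as did 11 of the intervals. The share of all probe sets with intervals wholly above the median was not counted. In that setting 11 of the 13 cesa intervals lay above 0, and 13.6% of all probe sets were higher at an unadjusted limma p under 0.05. Probe sets in the cesa range of levels had medians of 0.16 and 0.014 in these settings. The 95% intervals of the cesa probe sets reached 0.27 to 0.45 to either side with all 6 arrays, and 0.17 to 0.34 without that pool.

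Each array was then looked at by itself. As deviations from each probe set's own mean over the 6 arrays, the cesa probe sets averaged 0.21, 0.11 and 0.13 in the DpDf pools, against -0.16, -0.057 and -0.23 in the wild-type pools. The medians of all probe sets tested were 0.11, 0.094 and 0.055 in DpDf pools and 0.064, 0.057 and -0.39 in wild-type pools. The cesa mean less that median was 0.10, 0.020 and 0.072 in DpDf pools, against -0.23, -0.11 and 0.16 in wild-type pools. In the DpDf pools 10, 10 and 11 of the 13 lay above the array-wide median, and in the wild-type pools 0, 1 and 11. On this relative scale the family was low in wild type replicates 1 and 2 and higher in wild type replicate 3 than in any DpDf pool, so the groups overlapped. Their means were 0.065 ± 0.042 for DpDf and -0.061 ± 0.20 for wild type (SD, 3 pools each).

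**Figure D3:**
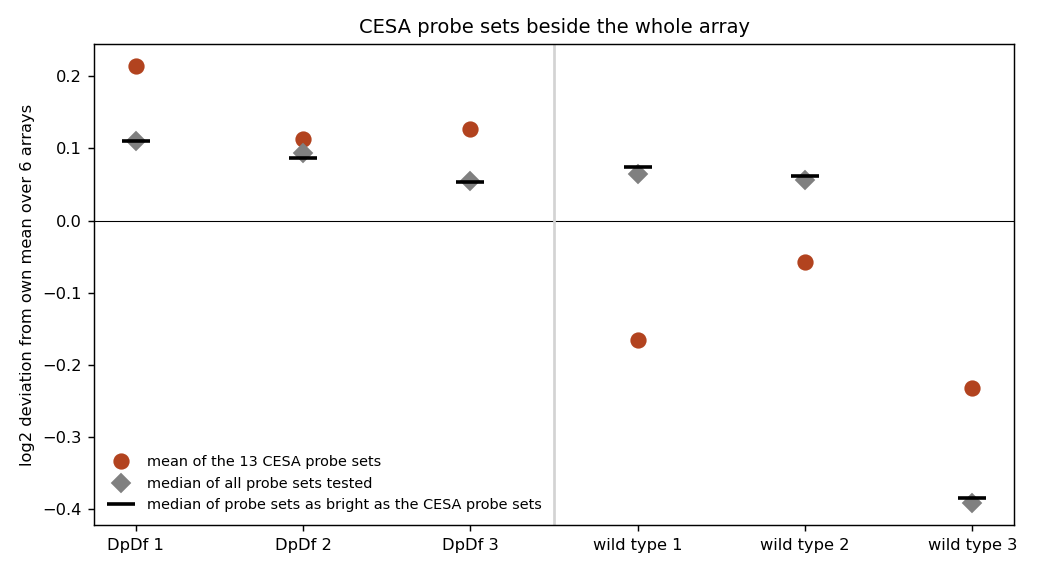
Mean log2 deviation of the 13 cesa probe sets on each array (circles), beside the median of all probe sets tested (diamonds) and of those in the cesa range of levels (bars), DpDf left and wild type right. The circles lie above the diamonds in the DpDf pools and in wild type replicate 3, and below them in wild type replicates 1 and 2.

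Ranks within an array do not depend on how arrays are scaled to each other. By percentile every DpDf pool exceeded each wild-type pool for 2 of the 13 probe sets, cesa2 and cesa12, against 13.9% of all probe sets tested. With that of wild type replicate 3 left out they did so for 11 of 13, against 21.2%. In wild type replicate 3, 10 of the 13 ranked above both other wild-type pools and 5 above every DpDf pool. The shares of all probe sets that did so were not counted, so these counts may not be particular to the cesa genes. For cesa11 the percentiles were 85.7 to 86.7 in DpDf, against 83.4, 85.0 and 89.3 in wild-type replicates 1 to 3. Whether the cesa genes rank higher in DpDf therefore turns on whether that pool is counted.

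**Figure D4:**
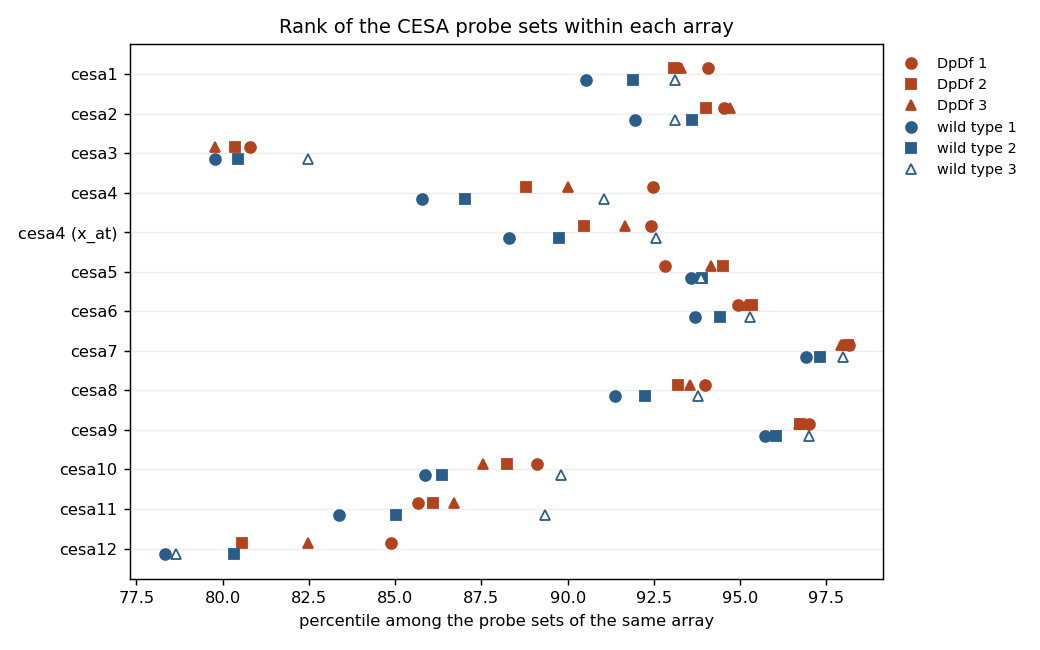
Percentile of each cesa probe set among all probe sets of the same array, DpDf pools in the upper row and wild-type pools in the lower row of each gene, wild type replicate 3 as an open triangle. Wild type replicates 1 and 2 lie left of all DpDf pools for 11 of 13 probe sets, against 21.2% of all probe sets tested. The open triangle lies right of all DpDf pools for 5, a share not counted over all probe sets.

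The mean deviations of the primary-wall and secondary-wall members were close. Averaged over cesa1 to cesa9 the deviation was 0.15 ± 0.049 in DpDf and -0.15 ± 0.084 in wild type, and over cesa10 to cesa12 it was 0.15 ± 0.077 in DpDf and -0.15 ± 0.10 in wild type (SD, 3 pools each). The difference between these sets was not tested. All 13 probe sets read lower in wild type replicate 1 than in replicate 2, against 46.1% of all probe sets tested. Pools of 1 replicate number came from the same sibling seeds, so they were also compared pairwise. In pair 1 the difference was above 0 for 12 of 13 probe sets, with a median of 0.36, the exception being cesa5 at -0.11. It was above 0 for all 13 in pair 2, with a median of 0.17, and in pair 3, with a median of 0.30. Over all probe sets tested the medians were 0.038, 0.031 and 0.45, so the cesa median was above that of the array in pairs 1 and 2 and below it in pair 3.

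The family's mean profile over the 6 arrays was set against those of 808 other named genes, by the root mean square of log2 differences between centred profiles. The nearest was LOC606488 (listed as cyclotide), at 0.030, then the D-type cyclin gene cycD2, at 0.038, and the aquaporin gene PIP1-3, at 0.039. They were followed by LOC542114, at 0.043, and the glutathione transferase gene gst5, at 0.046. The median over the 808 genes was 0.20. These 5 genes differed by 0.23 to 0.34 with all 6 arrays, and none passed the test (limma adjusted p = 0.447 to 0.562). They were chosen for their nearness on these same arrays, so differences like those of the family follow from the choice. Of the cesa genes, which make up the mean profile themselves, cesa8 was nearest to it, at 0.032, and cesa12 farthest, at 0.18, with 346 of the other genes nearer.

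Other genes of wall building were taken from lists of names. Cellulose assembly partners had 3 probe sets kept of 4, 0 called in either setting, and median differences of 0.38 on all 6 arrays, and 0.30 without wild type replicate 3. Bk2L3, a COBRA-like gene named after brittle stalk2 (bk2), had 2 probe sets, of which one read 12.54, 12.36 and 12.40 in DpDf pools and 12.05, 12.21 and 11.90 in wild-type pools, without overlap. Their differences were 0.38 and 0.38 (limma adjusted p = 0.438 and 0.448), or 0.31 and 0.30 without wild type replicate 3 (limma adjusted p = 0.119 and 0.140). For bk2 itself, needed for secondary-wall cellulose in maize stalks, the difference was 0.13 (limma adjusted p = 0.617), or 0.16 (limma adjusted p = 0.325) without wild type replicate 3.

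Sucrose synthases, which can supply UDP-glucose, had 4 probe sets kept of 5, 0 called, and medians of 0.0035 and, without wild type replicate 3, -0.095. With all 6 arrays sus2 differed by 0.70, sus1 by -0.090 and the dimmer kept probe set of sh1 by -0.83 (limma adjusted p = 0.499, 0.708 and 0.562). Single arrays moved these values, as sus2 was at 0.39 and sus1 at -0.14 without wild type replicate 3, and the sh1 probe set, low in DpDf replicate 1, was at -0.22 without that array. The brighter kept probe set of sh1 was at 0.097 with all 6 arrays, and at -0.055 without wild type replicate 3. Tubulins, the subunits of the microtubules that guide cellulose synthase, had 15 probe sets kept of 16. Their median was 0.12 with all 6 arrays, with 0 called, and 0.074 without wild type replicate 3, with 1 called, higher in DpDf, where 3.09% of all probe sets were. The called gene was tub4, which read 13.70, 13.56 and 13.66 in DpDf pools and 13.06, 13.23 and 13.21 in wild-type pools. It rose by 0.49 ± 0.085 (SE, limma adjusted p = 0.0321) without wild type replicate 3, while with all 6 arrays it differed by 0.47 (limma adjusted p = 0.337). With the pairing as a block and both pools of replicate 3 left out, tub4 was at 0.48 and not called (limma adjusted p = 0.159). Unlike the cesa genes it lies on chromosome 5, with 15.8% of that chromosome's genes before it. The listed wall genes 4CL, BM1, PAL1 and expa2 lie on that chromosome too and were not called in either setting. They have 47.6%, 49.7%, 76.7% and 89.8% of its genes before them, in that order. Which of these genes lie in the part with 3 copies was not determined. The part of gene copy number in these values was not tested. With all 6 arrays 1 probe set of tub5 differed by -0.44 and that of TUB2 by -0.26 (limma adjusted p = 0.556 and 0.562). Without DpDf replicate 1 that tub5 probe set was at -0.22, and the other probe set of tub5 was at 0.082 with all 6 arrays.

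Expansins, which loosen growing walls, and xyloglucan enzymes had 13 probe sets kept of 18, 0 called in either setting, and medians of 0.21 and, without wild type replicate 3, 0.077. All 13 were of expansins, as the xyloglucan enzyme gene xet1 was under the 40th percentile on all 6 arrays. Those of smallest p were expB6, EXPA5 and expa2, at 0.43, 0.36 and 0.39 (limma adjusted p = 0.430, 0.440 and 0.562). Without wild type replicate 3 they were at 0.35, 0.32 and 0.15, so that expa2 rested largely on that pool. Lignin and peroxidase genes had 6 probe sets kept of 10, 0 called, and medians of 0.027 and 0.0040. Here PRX42 differed by 0.72, PRX1 by -0.29 and PAL1, a phenylalanine ammonia-lyase gene, by -0.092 (limma adjusted p = 0.302, 0.543 and 0.728), or by 0.64, -0.35 and -0.049 without wild type replicate 3. Of the secondary-wall list, 3 probe sets besides the cesa genes were kept, those of bk2 and of the regulators of lignin genes myb31 and myb42. The regulators differed by 0.24 and -0.17 (limma adjusted p = 0.562 and 0.568), or by 0.27 and -0.11 without wild type replicate 3. The cellulose synthase-like list matched 0 named probe sets.

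**Figure D5:**
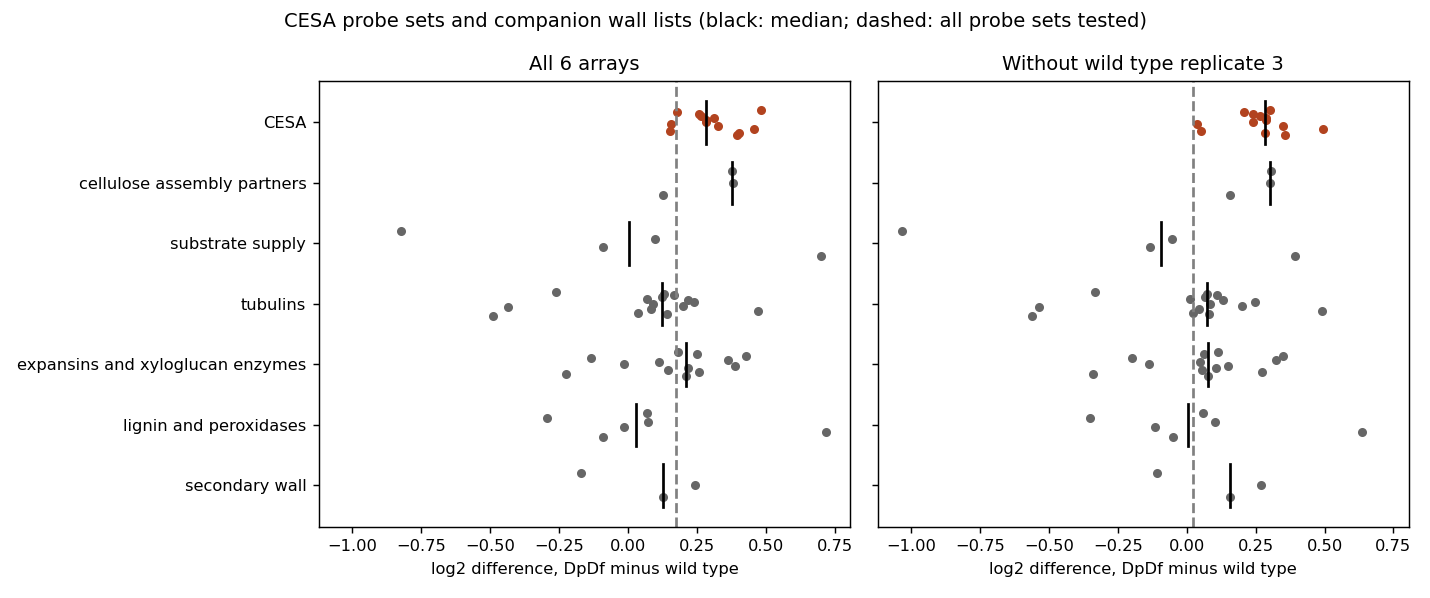
Log2 difference (DpDf minus wild type) of every kept probe set of the cesa genes (top row) and of 6 lists of wall genes without cesa members, with all 6 arrays at left and without wild type replicate 3 at right. The cesa points lie between 0.15 and 0.48 at left and between 0.038 and 0.49 at right, and each other list except the assembly partners has points on both sides of 0.

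Markers of the cell types a shoot tip can hold were summed as intensities over all probe sets of each list. Green leaf markers had 10 of 11 probe sets kept and sums of 37365 to 40588 in DpDf and 28466 to 36741 in wild type, so that the sums did not overlap. Several of these probe sets belong to pdk1, on chromosome 6. Names were matched without regard to capitals, so the list also took in PDK1, a different gene on chromosome 1. The kept probe sets of PDK1 differed by 0.57 and 0.22 with all 6 arrays and are part of the sums and the median. Whether PDK1 marks green leaf was not tested. In 4 of the 10 kept every DpDf pool was above wild type, as in 23.2% of all probe sets tested. Apart from that of mdh6, these were all probe sets of pdk1. The median difference of the kept green leaf probe sets was 0.30 on all 6 arrays, and 0.090 without wild type replicate 3, where pep1 was at -0.28 and ME1 at -0.093. Xylem and secondary-wall markers, of which 3 of 4 are cesa10, cesa11 and cesa12 themselves, had all 4 kept and sums of 9065 to 9587 in DpDf and 7512 to 8084 in wild type, also without overlap. Meristem markers had 3 of 4 kept, abph1 being under the 40th percentile on all 6 arrays, and sums of 1834 to 2668 in DpDf and 1816 to 2291 in wild type. Leaf primordium markers had 7 of 11 kept and sums of 12020 to 12576 in DpDf and 9333 to 12179 in wild type. Markers of dividing cells had 8 of 11 kept and sums of 29768 to 33007 in DpDf and 23061 to 32443 in wild type. The meristem, primordium and dividing-cell sums overlapped between the groups. The median differences of their kept probe sets were 0.070, 0.20 and 0.10 with all 6 arrays, in that order. Without wild type replicate 3 these medians were 0.050, 0.018 and -0.14. The primordium markers yab9, lg1, lg2 and ocl2 were, like abph1, under the 40th percentile on all 6 arrays, and the sums include such probe sets. Of all these markers 0 were called, and the part of tissue make-up in the cesa values was not tested. In such pools more cells of a type and more RNA per cell cannot be told apart.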

How the data were processed

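RNA of shoot tips from 6 pools, 3 DpDf and 3 wild type, was measured on 1 Affymetrix maize array each. The table the authors deposited holds an intensity for every probe set on every array, whose size and spread are those of a linear scale. GCOS 1.2 and GCRMA are named in the submitters' processing notes, with no role, and the scaling is not given in the sources used here. Intensities have no read depth, so no counting error is given.

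After 113 control probe sets were set aside, values became log2(intensity + 1), and 10661 probe sets passed the filter (10596 without wild type replicate 3, filtered anew). The test was limma 3.58.1 under R 4.3.3, with lmFit, eBayes and Benjamini-Hochberg adjusted p-values over every kept probe set (threshold 0.05). It was tested on simulated data, which lacked the array-wide shift of wild type replicate 3 and held changes larger than the cesa differences. Names came from the platform annotation and RefSeq, which served for names, chromosomes and gene order only. Every cesa probe set is named, and of each list the called members, or else up to 3 of smallest p. The members and lists were chosen with earlier results of these data known.

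The labels' protocols tie the DpDf and wild-type pool of a number to the same sibling seeds, which pairs them. Deviations from the group means correlated within pairs at 0.076, -0.16 and 0.20. Alternatives were other pseudocounts, filters and normalizations, a replicate block, array weights, and arrays left out.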

Additional observations from a re-analysis of the deposited data

How the results depend on the processing

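All 13 cesa probe sets kept a positive difference, and none passed, with a pseudocount of 0 or 16, no filter, a filter at the 60th percentile, median centring or the replicate block. Over all probe sets there were 2 calls with no filter or the 60th percentile filter, and 3 in the rest of these settings. With quantile normalization cesa3 turned to -0.048 and the other 12 stayed above 0, with cesa11 at 0.0041 and cesa5 at 0.016. The cesa median was 0.18 with median centring and 0.17 with quantile normalization, against 0.075 and 0.031 over all probe sets. With single arrays left out, 0 cesa probe sets were called, calls over all probe sets ran from 1 to 353 (353 without wild type replicate 3), and calls in the companion lists from 0 to 1. With the replicate block and both pools of replicate 3 left out, 1 probe set of all, 0 of cesa and 0 of the companion lists were called. Without DpDf replicate 1 and wild type replicate 3 together, chosen after the data were seen, 670 of all (6.39%), 1 cesa (cesa4) and 4 companion probe sets were called. With all 6 arrays the companion lists kept 3, 4, 15, 13, 6 and 6 probe sets, the last with cesa10, cesa11 and cesa12 among them. Array weights called 2446 of all (22.9%), 9 cesa and 16 companion probe sets. Those weights ran from 0.0387 for wild type replicate 3 to 17.0 for wild type replicate 2, so the wild-type mean rested mostly on 1 pool.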
